A study of Mus musculus with 40 samples.

Results

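Hbb-b1 is the beta-major globin gene of the diffuse Hbb haplotype, and it is 1 of the 6 adult globin genes counted in 40 RNA-seq libraries from 20 mice. It was taken by name, as the exon and intron counts listed for it in every library. RNA came from Ter119+ cells, isolated on magnetic beads from the spleen and the bone marrow of each mouse. Ter119 marks the surface of cells of the red cell line. The mice were Hbb th3/+, a beta-thalassemia model that is heterozygous for a deletion of adult beta-globin genes, or wild type (WT), and each genotype was studied on the diffuse and on the single haplotype. The 8 groups were thus th3/+ diffuse, WT diffuse, th3/+ single and WT single, each in spleen and in marrow, with 5 libraries a group. The study asked how far these haplotypes alter the severity of beta-thalassemia. All mice were labelled C57BL/6J, and their age was not given in the sources used here.

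Hbb-b1 makes the main adult beta chain of diffuse mice, which pairs with the alpha chains from Hba-a1 and Hba-a2 to form hemoglobin. Its neighbour Hbb-b2, the beta-minor gene, makes the lesser beta chain, while mice of the single haplotype carry Hbb-bs and Hbb-bt in place of both. The th3 deletion removes both adult beta genes from the chromosome that carries it, and in beta-thalassemia alpha chains that find no beta partner precipitate in red cell precursors. In the RefSeq annotation of GRCm38.p6 Hbb-b1 (gene ID 15129) is assigned to chromosome 7 with a length of 1400 bases. Its listed start of 38285 and end of 39684 do not lie near Hbb-bs, which starts at 103826523, so they were not used as positions on the chromosome.

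A library held 10110962 to 32381045 globin exon counts in all. In the 20 diffuse libraries Hbb-b1 itself had 6549991 to 20040402 exon and 1094 to 22975 intron counts, which left little room for counting error. A column taken from its header as reads shared by the diffuse genes held 472 to 2212 exon counts there. How multiply mapped reads were counted is not given, so this column cannot show how cleanly reads were split between Hbb-b1 and the closely related Hbb-b2. In the 20 single libraries Hbb-b1 had 707 to 9036 exon and 3 to 14 intron counts. The table lists globin genes alone, so the Ter119+ identity could not be checked beyond the adult globins, and no total over all genes was used. All Hbb-b1 values are therefore relative to other globin counts, and a fall of Hbb-b1 cannot be told apart from a rise of alpha. In such bulk samples fewer cells of a type and less RNA per cell cannot be told apart either.

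Relative to alpha-globin, Hbb-b1 mRNA was lower in th3/+ than in WT erythroid cells of diffuse mice in both tissues. In spleen the 5 th3/+ libraries had 1.16, 1.27, 1.22, 1.27 and 1.19 Hbb-b1 exon counts per alpha exon count, against 2.35, 2.29, 2.25, 2.23 and 3.22 in the 5 WT libraries. In marrow the th3/+ libraries had 1.11, 1.11, 1.14, 1.21 and 1.24, against 2.58, 2.73, 3.53, 2.33 and 2.37 in WT. The groups did not overlap in either tissue, and each WT group held 1 library well above its other 4. These were mouse BZC997 in spleen and mouse BZC1014 in marrow, so the high value came from a different mouse in each tissue.

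The group means were 1.22 ± 0.0494 in th3/+ and 2.47 ± 0.424 in WT spleen, and 1.16 ± 0.0598 in th3/+ and 2.71 ± 0.486 in WT marrow (SD, n = 5 each). From the mean log2 ratios, Hbb-b1 per alpha count fell to 0.501 of the WT level in spleen (95% interval 0.427 to 0.563) and to 0.434 in marrow (0.357 to 0.506). Both passed the two-sided exact permutation test with p = 0.00794, the smallest that 5 against 5 libraries allow (adjusted p = 0.0132 over 10 genotype tests). With any 1 library left out the log2 difference stayed between -1.03 and -0.90 in spleen and between -1.26 and -1.11 in marrow. Every such test passed, but groups that do not overlap stay apart with 1 library fewer, so these passes add little.

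**Figure D1:**
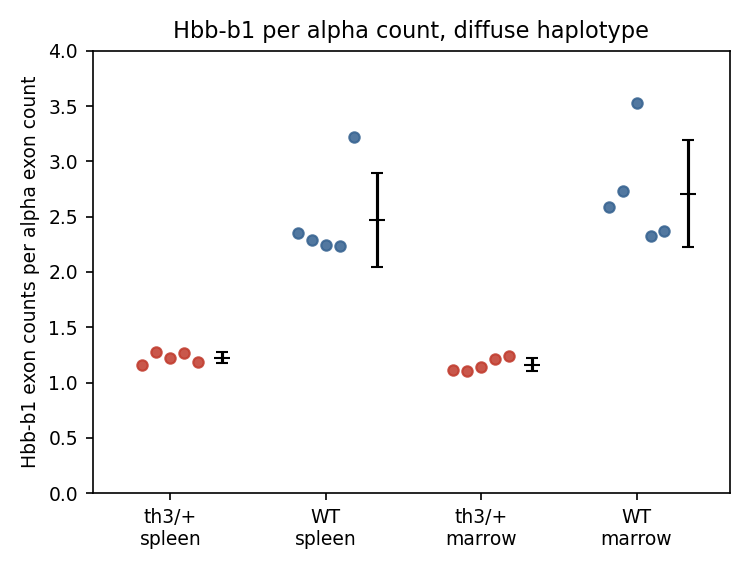
Hbb-b1 exon counts per alpha exon count (linear axis) in each of the 20 diffuse libraries, by genotype and tissue. Points are mice and bars are the mean ± SD of 5. All th3/+ points lie between 1.11 and 1.27 and all WT points at 2.23 or above.

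The count model gave the same direction. With alpha counts as the offset, edgeR's log2 fold change of Hbb-b1 in th3/+ against WT was -1.01 (SE 0.11, adjusted p = 1.20e-07) in spleen and -1.22 (SE 0.11, adjusted p = 2.26e-08) in marrow. Lower calls were common among the 8 features of this fit, which are the 6 genes and 2 columns taken as reads shared by related genes. They made up 75.0% in spleen and 50.0% in marrow, while higher calls made up 12.5% in each tissue, so a lower call alone did not set Hbb-b1 apart from the other features. Hbb-b2, the other beta gene these mice carry, changed by -0.83 in spleen and -0.97 in marrow (edgeR adjusted p = 1.20e-07 and 2.26e-08). Hbb-bt and Hbb-bs, which these mice do not carry and which had only trace counts, changed by -1.22 and -3.06 in spleen (edgeR adjusted p = 0.000353 for each). In marrow Hbb-bt changed by -1.43 (edgeR adjusted p = 8.97e-05) and Hbb-bs by -0.18, which did not pass (edgeR adjusted p = 0.764). The Hbb-b1 change was thus not the largest of the 8 features in either tissue. Hba-a1, an alpha gene that is itself part of the offset, rose by 0.06 in both tissues (edgeR adjusted p = 0.0198 in spleen and 0.0150 in marrow), while Hba-a2, the other alpha gene, fell by 0.07 in spleen (edgeR adjusted p = 0.0309) and gave -0.01 in marrow, which did not pass (edgeR adjusted p = 0.704). The size of the Hbb-b1 change depends on the denominator: with all globin counts as the offset, in which Hbb-b1 is itself the largest part, it was -0.34 in spleen and -0.42 in marrow (edgeR adjusted p = 5.24e-09 and 5.11e-10). With TMM factors, a scaling that takes most features as unchanged, it was -0.11 in spleen and did not pass (edgeR adjusted p = 0.334), and -0.35 in marrow, where it passed (edgeR adjusted p = 0.00166).

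As a share of all globin exon counts, Hbb-b1 was the most abundant listed gene in every diffuse library. It took 48.2% to 50.0% in the 5 th3/+ spleen libraries, with a median of 49.2%, against 60.2% to 67.6% with a median of 61.3% in WT spleen. In marrow it took 46.7% to 49.8% with a median of 47.7% in th3/+, against 61.7% to 68.1% with a median of 63.7% in WT. No th3/+ library reached the lowest WT library. The means were 49.1% ± 0.714 in th3/+ and 62.4% ± 3.01 in WT spleen, and 48.1% ± 1.23 and 64.1% ± 2.58 in th3/+ and WT marrow (SD, n = 5 each). The log2 odds of the share differed by -0.78 in spleen (95% interval -0.97 to -0.64) and by -0.95 in marrow (-1.15 to -0.78; exact permutation p = 0.00794, adjusted p = 0.0132 in both).

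Where the share of Hbb-b1 was lower, that of alpha was higher. Alpha took 40.2% ± 1.06 of globin exon counts in th3/+ and 25.6% ± 2.61 in WT spleen, and 41.4% ± 1.10 and 24.1% ± 2.90 in th3/+ and WT marrow (SD, n = 5 each). The share of Hbb-b2 lay at 10.6% ± 0.432 in th3/+ and 12.0% ± 0.594 in WT spleen, and at 10.5% ± 0.474 and 11.8% ± 0.457 in th3/+ and WT marrow (SD, n = 5 each). There were thus 4.38 to 4.75 Hbb-b1 counts per Hbb-b2 count in th3/+ spleen, against 4.65 to 5.96 in WT spleen, and 4.22 to 4.97 in th3/+ marrow, against 5.28 to 5.74 in WT marrow. These are ratios of counts and not of molecules, since the lengths and the mappability of the genes were not corrected for.

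**Figure D2:**
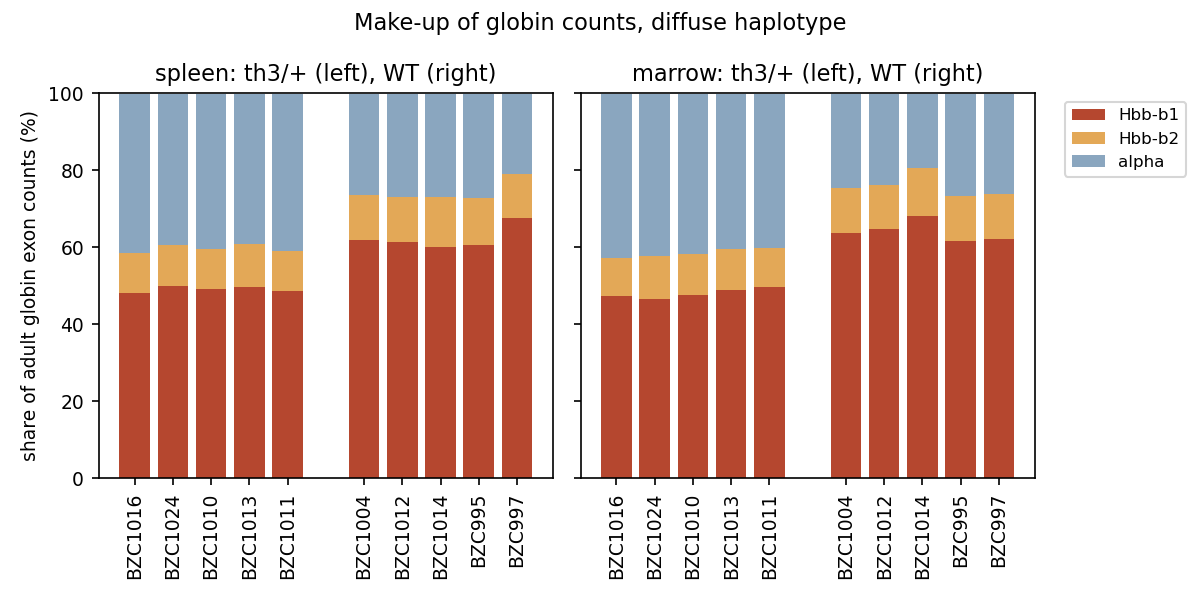
Share of adult globin exon counts (percent, linear axis from 0) taken by Hbb-b1, Hbb-b2 and alpha in each diffuse library, th3/+ mice to the left of WT mice in each tissue. The Hbb-b1 segment ends between 46.7% and 50.0% in th3/+ libraries and between 60.2% and 68.1% in WT libraries.

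Among the listed genes, Hbb-b2 followed Hbb-b1 most closely over the 4 diffuse groups. The measure was the root mean square difference between centred group means of log2 exon counts per globin count, and it was 0.11 for Hbb-b2. It was 0.54 for Hba-a2 and 0.58 for Hba-a1. Hbb-bt and Hbb-bs are not carried by these mice and had only trace counts, with values of 0.13 and 0.74, the last being the least alike. All these profiles share 1 total per library, so they are not independent of each other.

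Intron counts come mainly from transcripts that are not yet spliced, and they were far fewer than exon counts. Relative to alpha introns, Hbb-b1 introns were lower in th3/+ than in WT libraries in both tissues, by a similar size to the exon counts. In spleen the th3/+ libraries had 0.612, 0.588, 0.595, 0.754 and 0.662 Hbb-b1 intron counts per alpha intron count, against 1.38, 1.22, 1.32, 1.74 and 1.71 in WT. In marrow the th3/+ libraries had 0.556, 0.579, 0.652, 0.629 and 0.608, against 1.35, 1.18, 1.31, 1.35 and 1.31 in WT. Again the groups did not overlap in either tissue.

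The ratio fell to 0.438 of the WT level in spleen (95% interval 0.349 to 0.544) and to 0.465 in marrow (0.426 to 0.507; exact permutation p = 0.00794, adjusted p = 0.0132 in both). With alpha exon in place of alpha intron counts below the line, the spleen difference was -0.45 on the log2 scale and did not pass (exact permutation adjusted p = 0.444), while the marrow difference was -1.74, against -1.11 with alpha introns, and passed (exact permutation adjusted p = 0.0159). The WT spleen libraries of mice BZC995 and BZC997 hold the highest ratios of their group. The spleen difference was -1.03 (exact permutation adjusted p = 0.0298) after their removal, an alternative added later with the values known.

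Measured against its own exon counts, the Hbb-b1 intron gave no common direction across tissues with all libraries in. The spleen direction turned on the WT libraries of mice BZC995 and BZC997, given below. In marrow the th3/+ libraries had 4.74, 7.27, 8.41, 6.39 and 8.41 intron counts per 10000 exon counts, against 7.39, 12.1, 10.1, 11.5 and 9.47 in WT. The groups overlapped through the lowest WT library of mouse BZC1004. The mean was 7.04 ± 1.54 in th3/+ and 10.1 ± 1.85 in WT marrow (SD, n = 5 each), a log2 difference of -0.53 (95% interval -1.01 to -0.10; exact permutation p = 0.0317, adjusted p = 0.0454). This adjusted p lay close to the threshold, and the removal of any 1 of 7 among the 10 libraries ended the call. They were th3/+ mice BZC1016, BZC1024 and BZC1013 and WT mice BZC1012, BZC1014, BZC995 and BZC997 (log2 differences with any 1 library left out -0.64 to -0.40, exact permutation adjusted p up to 0.102).

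The alpha genes also had fewer introns per exon count on average in th3/+ marrow, a difference that was not tested on its own. They had 13.5 ± 2.85 intron counts per 10000 exon counts in th3/+ and 21.3 ± 6.13 in WT marrow (SD, n = 5 each). Taken relative to this alpha value in the same library, the Hbb-b1 intron per exon count differed by 0.10 on the log2 scale (exact permutation adjusted p = 0.468), likewise a comparison added with the values known. The part of the alpha value in the marrow difference was otherwise not tested.

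In spleen the th3/+ libraries had 5.26, 5.24, 6.77, 7.68 and 9.46 Hbb-b1 intron counts per 10000 exon counts, against 8.76, 6.35, 12.3, 1.89 and 1.60 in WT. The last 2 WT values, of mice BZC995 and BZC997, lay below every other diffuse library. Their alpha introns were also the lowest of the 20 diffuse libraries, at 2.42 and 3.02 per 10000 alpha exon counts against 9.46 to 28.0 in the other 18. Their Hbb-b2 introns were the lowest too, at 13.1 and 18.3 per 10000 exon counts against 18.4 to 33.1 in the other 18, so the second lay close to that range. In marrow the same mice lay within the range of their group, with 11.5 and 9.47 Hbb-b1 intron counts. Their spleen libraries had 29112305 and 10110962 globin exon counts, the most and the fewest of the WT diffuse spleen group.

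The spleen difference did not pass (log2 difference 0.54, 95% interval -0.80 to 2.08, exact permutation adjusted p = 0.405). It was -0.39 without these 2 libraries and did not pass either (exact permutation adjusted p = 0.258). Set against the intron per exon count of Hbb-b2 in the same library, that of Hbb-b1 differed by 0.53 in spleen (95% interval -0.33 to 1.65) and by -0.35 in marrow (-0.91 to 0.25), and neither passed (exact permutation adjusted p = 0.362 and 0.288). The intervals leave room for changes in either direction.

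**Figure D3:**
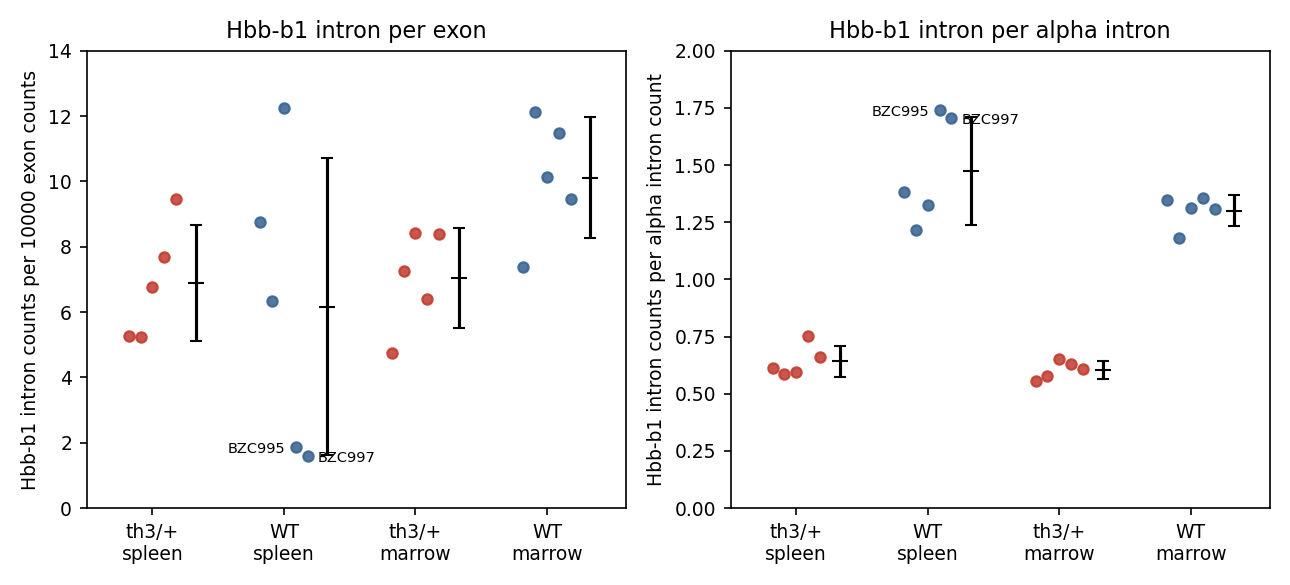
Hbb-b1 intron counts per 10000 Hbb-b1 exon counts (left) and per alpha intron count (right) in the 20 diffuse libraries, on linear axes. Points are mice and bars are the mean ± SD of 5. The WT spleen libraries of mice BZC995 and BZC997, at 1.89 and 1.60 on the left, are named, and on the right all th3/+ points lie at or below 0.754 and all WT points at or above 1.18.

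**Figure D4:**
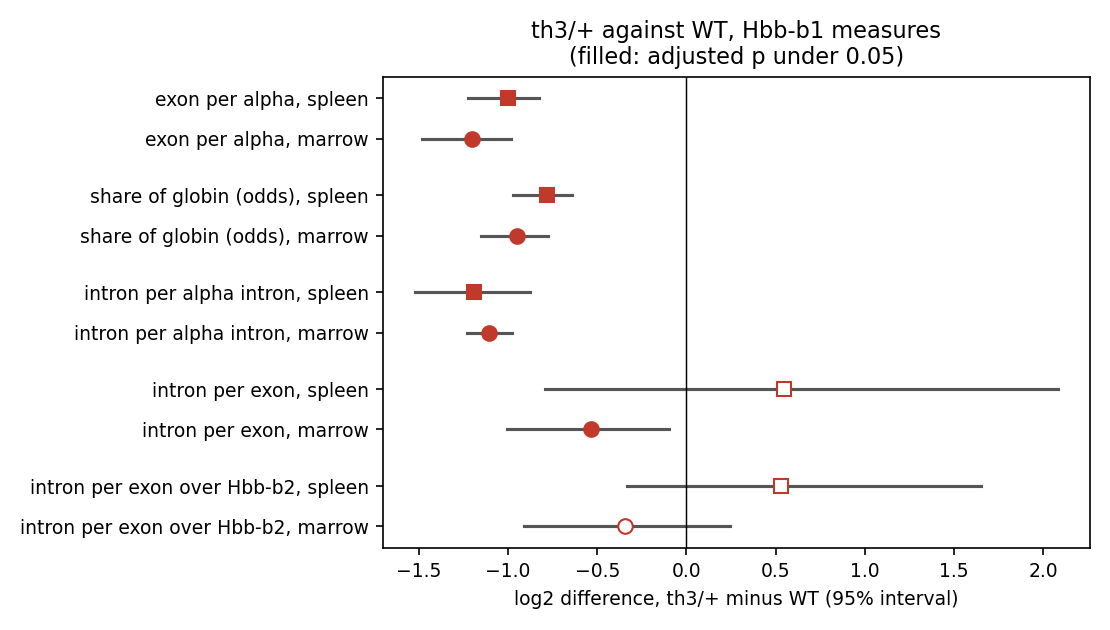
Log2 differences of 5 Hbb-b1 measures, th3/+ minus WT, in diffuse spleen (squares) and marrow (circles), with 95% intervals; filled marks passed the exact permutation test after adjustment. The exon, share and intron-to-intron measures lie between -1.21 and -0.78, while the intron per exon measures lie between -0.53 and 0.54 with wide intervals.

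Between tissues, no difference in Hbb-b1 of diffuse mice passed the threshold. Hbb-b1 per alpha count differed by 0.07 on the log2 scale in spleen against marrow of th3/+ mice (95% interval -0.03 to 0.18, exact permutation adjusted p = 0.337), and 4 of 5 mice were higher in spleen. In WT mice it differed by -0.13 (-0.46 to 0.21, exact permutation adjusted p = 0.496), and 1 of 5 mice was higher in spleen. In order of mean level, WT marrow thus stood above WT spleen, then th3/+ spleen and th3/+ marrow. The neighbours of the same genotype did not pass the test, which does not use the pairing of spleen and marrow within a mouse. The same holds for the other tissue tests given here. Hbb-b1 introns per alpha intron were higher in spleen in 5 of 5 WT mice, by 0.17 (-0.07 to 0.44), and in 4 of 5 th3/+ mice, by 0.08 (-0.09 to 0.26; exact permutation adjusted p = 0.365 and 0.488). In WT mice the Hbb-b1 intron per exon count differed by -1.12 (-2.66 to 0.25, exact permutation adjusted p = 0.337), with mice BZC995 and BZC997 in the spleen group, and by -0.18 without their spleen libraries (exact permutation adjusted p = 0.714).

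A test of whether the th3/+ difference itself depended on the tissue compared its log2 value in spleen with that in marrow. For Hbb-b1 per alpha count the spleen value minus the marrow value was 0.21, a smaller decrease in spleen, and did not pass (permutation p = 0.182, adjusted p = 0.228). For the share of globin counts it was 0.17 (permutation p = 0.148, adjusted p = 0.228), and for introns per alpha intron it was -0.09 (permutation p = 0.507, adjusted p = 0.507). For introns per exon count it was 1.08 (permutation p = 0.100, adjusted p = 0.228), and for that value against Hbb-b2 it was 0.87 (permutation p = 0.0802, adjusted p = 0.228). The exon result turned on 1 library: without the WT spleen library of mouse BZC997, the highest of its group, the values were 0.31 per alpha count and 0.25 for the share, and both passed (permutation adjusted p = 0.0185). Over all 20 removals of 1 library the value per alpha count ran from 0.11 to 0.31, and 19 of them did not pass (permutation adjusted p up to 0.496). With the marrow and spleen libraries of a mouse taken as a pair, the value per alpha count was the same 0.21 and did not pass (exact permutation adjusted p = 0.413).

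Single-haplotype mice do not carry Hbb-b1, and their libraries held only a trace of counts assigned to it. In spleen these were 105, 79.4, 78.4, 93.3 and 78.6 Hbb-b1 exon counts per 1000000 globin exon counts in th3/+ libraries, against 212, 616, 263, 171 and 294 in WT. In marrow they were 60.9, 54.5, 78.7, 79.3 and 60.6 in th3/+ libraries, against 107, 102, 123, 98.5 and 84.8 in WT. The th3/+ libraries lay below all WT libraries of their tissue. The lowest library, th3/+ marrow of mouse BZC1008, had 785 counts and a 95% Wilson interval of 50.8 to 58.5 on this scale, and the highest, WT spleen of mouse JAW2588, had 9036 counts and 604 to 629. These intervals cover counting error only.

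Diffuse libraries of the same genotype and tissue had on average 5652-fold (th3/+ spleen), 2004-fold (WT spleen), 7196-fold (th3/+ marrow) and 6219-fold (WT marrow) more Hbb-b1 per globin count. Per globin count the trace was lower in th3/+ than in WT mice, at 0.308 of the WT level in spleen (95% interval 0.184 to 0.478) and 0.645 in marrow (0.509 to 0.806; exact permutation p = 0.00794, adjusted p = 0.0106 in both). In WT mice it was 2.74-fold higher in spleen than in marrow (1.72 to 4.66, exact permutation p = 0.00794, adjusted p = 0.0106), in 5 of 5 mice. With both libraries of a mouse taken as a pair this did not pass (exact permutation p = 0.0625, the smallest 5 pairs allow, adjusted p = 0.0833). In th3/+ mice it was 1.31-fold higher and did not pass (0.999 to 1.71, exact permutation p = 0.0635, adjusted p = 0.0635). Without the marrow library of mouse BZC1018 or that of mouse BZC1005 the log2 difference was 0.45 and passed (exact permutation adjusted p = 0.0238). The calls of the th3/+ difference held with each library left out, including the highest WT spleen library. This adds little, since groups that do not overlap stay apart with 1 library fewer. The trace is given per globin count, and alpha took more of that total in th3/+ single libraries. Its share was 44.6% ± 1.95 in th3/+ and 32.1% ± 1.85 in WT single spleen. In single marrow it was 46.3% ± 2.83 in th3/+ and 28.0% ± 2.99 in WT (SD, n = 5 each). The trace per count of the beta genes these mice carry was not computed, and the part of the alpha share in the trace difference was not tested. The calls and the lack of overlap hold for the trace per globin count and may not hold per beta count, above all in marrow, where the difference was smaller. Of the WT single mice 1 had a code of the same series as all th3/+ mice, and genotype and code series cannot be told apart for the other 4. That mouse, BZC996, had 263 in spleen and 123 in marrow, above all th3/+ libraries of its tissue.

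In the make-up of the trace the genotypes did not overlap, as a description with no test. In th3/+ single libraries there were 0.689 to 0.882 Hbb-b1 counts per Hbb-b2 count in spleen and 0.449 to 0.521 in marrow. In WT single libraries there were 4.49 to 6.05 in spleen and 6.00 to 10.3 in marrow, against 4.22 to 5.96 over all diffuse libraries. Hbb-b2 exon counts per 1000000 globin exon counts averaged 112 ± 16.3 in th3/+ and 63.2 ± 41.2 in WT single spleen, where the ranges overlapped, and 138 ± 17.3 in th3/+ and 15.0 ± 4.14 in WT single marrow, where they did not (SD, n = 5 each). Trace Hbb-b1 had 11.1 to 97.6 intron counts per 10000 exon counts, against 1.60 to 12.3 in diffuse libraries, with a small overlap, and the trace values rest on 3 to 14 intron counts a library. How the reads of the trace came to be assigned to Hbb-b1 was not tested.

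**Figure D5:**
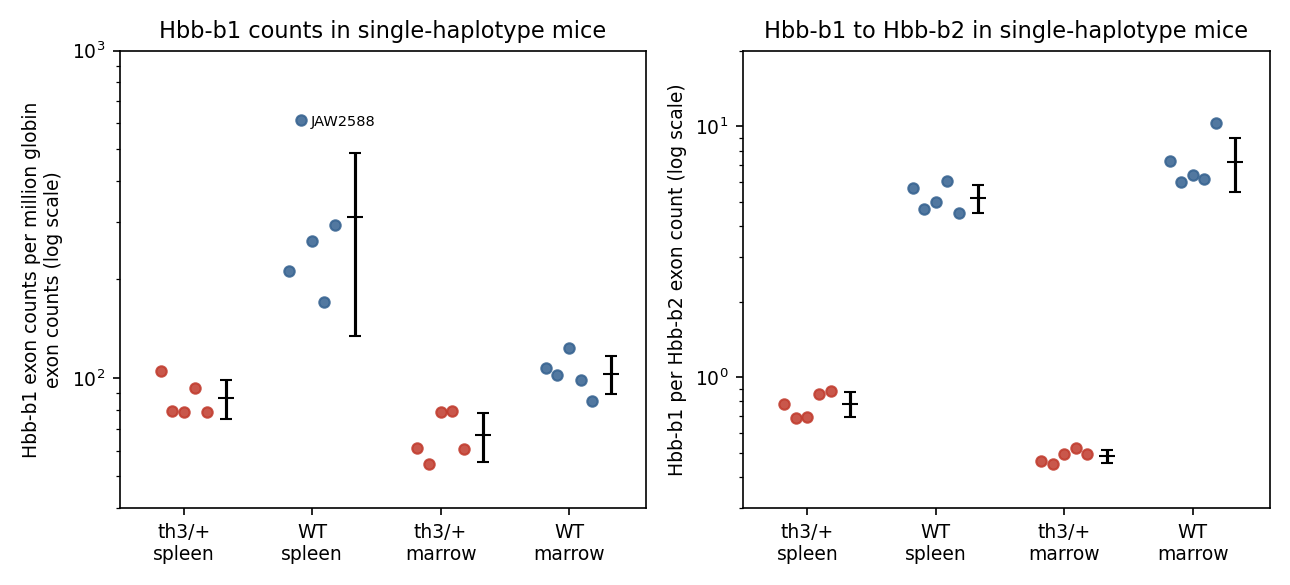
Hbb-b1 exon counts per 1000000 globin exon counts (left) and per Hbb-b2 exon count (right) in the 20 single-haplotype libraries, both on log axes. Points are mice and bars are the mean ± SD of 5. All th3/+ points lie below all WT points of the same tissue in both panels, and the WT spleen library of mouse JAW2588, at 616, is named.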

How the data were processed

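The authors' deposited table holds raw read counts for the exons and for the introns of each globin gene, and all values here start from these counts. HTSeq, SAMtools, STAR in versions 2.5.3a and 2.7.9a and the build mm10 stand in the submitters' processing notes, which assign no roles. Libraries were made with a kit that keeps strand, per the labels' protocols, but how strand and multiply mapped reads were counted is not given in the sources used here. The authors' deposited percent of Hbb-b1 intron over exon counts and their deposited ratio of Hbb-b1 to Hba counts equalled values recomputed from the counts and served only as checks. A further 30 value columns were not used.

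Alpha counts were Hba-a1, Hba-a2 and the column headed Ambiguous, taken as reads shared by both. Each comparison used a two-sided exact permutation test over all 252 splits, applied to log2 ratios or, for shares, log2 odds, and its interval comes from inverting that test. Difference-of-difference tests permuted residuals 100000 times. Benjamini-Hochberg adjustment ran over 10 genotype, 10 tissue, 5 difference-of-difference and 4 trace tests, with a threshold of 0.05. edgeR's quasi-likelihood test was fitted to the 20 diffuse libraries and adjusted over 8 features and both tissues. DESeq2 and other denominators, scalings and left-out libraries were tried, and the procedures were tested on simulated data.

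Row names give group and mouse code but no replicate number. The code pairs each marrow with a spleen library of the same animal, and 5 of 10 diffuse mice deviated from their group means in the same direction in both tissues (Hbb-b1 per alpha). Hbb-b1, the other genes named and the tests were chosen with earlier results of these data known; the other listed genes were ranked by likeness to Hbb-b1 and all are named. The software was edgeR 4.0.16, DESeq2 1.42.0 and limma 3.58.1 in R 4.3.3, and scipy 1.17.1, pandas 2.3.3, numpy 2.4.6 and matplotlib 3.10.9 in Python 3.11.15.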

Additional observations from a re-analysis of the deposited data

Results flagged for a closer look

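In WT diffuse spleen the library of mouse BZC997 stood apart from the other 4, with 3.22 Hbb-b1 counts per alpha count and an Hbb-b1 share of 67.6% of globin counts. In WT diffuse marrow the library of mouse BZC1012 stood below the other 4, with 1.18 Hbb-b1 intron counts per alpha intron count. Each was marked because its gap to the nearest library, relative to the range of its group, was above Dixon's 95% critical value. Of 24 groups and measures examined 3 were marked, and chance marks about 1 in 20. The marks for counts per alpha count and for share are of the same library. Those measures are closely related, so the marks are not independent.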

How the results depend on the processing

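Over 31 results and 475 alternatives, 444 kept direction and side of the threshold. The th3/+ against WT differences of Hbb-b1 per alpha count, share and introns per alpha intron kept both under every alternative run, except introns in spleen with alpha exon counts below the line (-0.45, no longer passing; marrow -1.74, passing). That denominator also turned the spleen against marrow intron difference of WT mice to -1.25 and the tissue dependence of the th3/+ difference to 1.28, neither passing. TMM factors took the edgeR value to -0.11 in spleen, no longer passing, and to -0.35 in marrow, passing. All these values are log2 differences, and the causes were not tested. For per alpha count, share and introns per alpha intron the th3/+ and WT groups do not overlap, so leaving out 1 library could hardly change those calls.

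Without the WT diffuse spleen libraries of mice BZC995 and BZC997, the th3/+ spleen difference turned to -0.39 for introns per exon and to -0.10 for that value against Hbb-b2, and tissue dependence turned to 0.075 for introns per alpha intron, while it passed at 0.30 for exon per alpha and 0.25 for share. Relative to alpha introns per exon, Hbb-b1 introns per exon turned to 0.10 (th3/+ marrow), -0.19 (th3/+ spleen), 0.0074 and 0.30 (spleen against marrow in th3/+ and WT mice) and -0.29 (tissue dependence), none passing.

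Leaving out 1 library each time gave -0.64 to -0.40 for th3/+ introns per exon in marrow. It gave -0.18 to 0.049 for spleen against marrow introns per exon in th3/+ mice and -0.11 to 0.20 for that value against Hbb-b2. Tissue dependence ranged over 0.11 to 0.31 for exon per alpha and 0.11 to 0.25 for share, and the trace in spleen against marrow of th3/+ single mice over 0.32 to 0.45, passing without the marrow library of BZC1018 or of BZC1005 (exact permutation adjusted p = 0.0238).

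With both libraries of a mouse as a block, the trace difference of WT single mice was the same 1.45 and did not pass (exact permutation p = 0.0625, the smallest 5 pairs allow). No spleen against marrow difference could pass with such a block. The others had not passed before, so their unchanged calls say nothing on how firm they are. The tests of tissue dependence, which could pass with the block, kept their calls. No paired analysis was possible for th3/+ against WT because the rows carry no replicate number and each mouse has 1 genotype. Those planned fits were not run. Low counts limit the intron values of the trace. They also limit its Hbb-b1 per Hbb-b2 ratios in WT single marrow, which rest on 125 to 438 Hbb-b2 exon counts a library. No total over all genes was used to judge depth.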
